A study of Mus musculus with 32 samples.

Results

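A set of 10 genes commonly used to mark neural stem cells (NSCs) and the astroglial cells they resemble was followed through an interferon treatment. They were Nes, Vim, Gfap, Prom1, Slc1a3, Slc1a2, Aldoc, Fabp7, Vcam1 and Cd9, 10 of the 23035 genes in the footprint tables. The rule names the genes and uses no measured value, although earlier results of these data were known when the genes were chosen. All 10 symbols matched a single Ensembl row identifier each, and each was then read in the vehicle and IFN-β columns at both times.

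The NSCs were grown ex vivo from the ventricular-subventricular zone (vSVZ) of young C57BL/6 male mice, in medium with the growth factors EGF and FGF. Cultures received IFN-β, a type-I interferon, or its vehicle (BSA in PBS) for 2 h or 14 h, and every group, vehicle included, was exposed briefly to cycloheximide before lysis to hold ribosomes in place. Each of the 4 groups held 4 cultures. Their numbers were 2, 3, 5 and 6 in the 2 h set and 1 to 4 in the 14 h set, and each culture gave a library of ribosome-protected mRNA fragments (footprints) and a library of total RNA. The cells carried no engineered allele, and growth factors keep such cultures in a proliferating state, so they model activated stem cells without their niche.

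Neural stem cells of the adult vSVZ are a type of astroglia. They share with astrocytes the intermediate filament protein GFAP, the glutamate transporters GLAST (Slc1a3) and GLT-1 (Slc1a2), the glycolytic enzyme aldolase C (Aldoc) and the brain fatty acid binding protein (Fabp7). Nestin (Nes) and vimentin (Vim) are the intermediate filaments of neural progenitors, and prominin 1 (Prom1, CD133) is a membrane protein used to sort stem cells. VCAM1 is an adhesion receptor on the stem cells' process in the vSVZ, and CD9 is a tetraspanin of the cell surface. Type-I interferons act through a receptor that activates STAT transcription factors.

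Footprints were counted in the coding sequence (CDS) of each gene and are given as counts scaled to a common library total (CPM). Total counts were 4956144 to 9361609 per footprint library at 2 h and 2956297 to 10505108 at 14 h. For total RNA they were 3992402 to 7877753 at 2 h and 1370008 to 2737111 at 14 h. Genes known to respond to interferon served as a check of the labels, at an adjusted p under 0.05 in edgeR. In footprints, 14 of 14 tested at 2 h and 15 of 15 at 14 h were higher with IFN-β. In total RNA, 4 of 8 tested at 2 h and 5 of 7 at 14 h were higher, and 0 were lower. Both cultures numbered 3 at 2 h stood apart. Their footprints correlated with the other libraries of their group at r = 0.956 to 0.971 across genes, against 0.990 to 0.992 among the others. With vehicle, 7 members were higher and 3 were lower in the culture numbered 3 than in all 3 others, and with IFN-β 6 were higher and 3 lower. The same shares were not taken over all genes, so these counts do not set the members apart from other genes. The fold changes at 2 h are therefore also given without these cultures, a setting chosen after the data had been seen. In bulk cultures, more cells of a type and more RNA or ribosomes per cell cannot be told apart.

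The promoters of the members were searched for 2 letter patterns, because interferon receptors act through STAT and IRF factors. RefSeq held a promoter window of 300 bases (250 before to 50 after the annotated start, GRCm38.p6) for 9 of the 10 members, and Vcam1 had no entry. The palindrome TTCNNNGAA, a STAT-type pattern, stood in 8.29% of all 32817 windows, and among the members in those of Gfap, Slc1a3 and an alternative start of Aldoc. The pattern GAAANNGAAA, of the type that IRF-containing complexes bind, was searched on both strands. It stood in 3.43% of all windows and in none of the members'. The patterns share GAA and could overlap. The windows of Gfap and Slc1a3 are shown, a choice made after their values had been seen. With IFN-β their footprints went in opposite directions at 14 h, Gfap higher from few reads and Slc1a3 lower, as described further on. The window of Aldoc, with 2 matches, is not shown. Aldoc footprints had log2 fold changes of 0.064 at 2 h and -0.051 at 14 h. The pattern is in capitals. The windows shown lie at chr11:102897151-102897450 and chr15:8710758-8711057, both on the minus strand.
Gfap: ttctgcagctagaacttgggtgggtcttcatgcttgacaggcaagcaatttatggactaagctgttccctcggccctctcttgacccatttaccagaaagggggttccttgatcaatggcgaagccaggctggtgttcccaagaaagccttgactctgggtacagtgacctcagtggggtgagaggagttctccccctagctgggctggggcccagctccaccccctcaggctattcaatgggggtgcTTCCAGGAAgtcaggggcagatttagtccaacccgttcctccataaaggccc
Slc1a3: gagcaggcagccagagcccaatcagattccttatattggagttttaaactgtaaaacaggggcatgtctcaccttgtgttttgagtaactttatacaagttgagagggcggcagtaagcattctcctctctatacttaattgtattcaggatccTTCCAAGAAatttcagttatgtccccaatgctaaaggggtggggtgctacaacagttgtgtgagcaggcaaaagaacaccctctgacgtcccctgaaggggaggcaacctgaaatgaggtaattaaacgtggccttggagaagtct
In Gfap the pattern lies across the annotated start, and in Slc1a3 it lies upstream of it. A match describes letters and is not a measured binding site.

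Before any treatment effect, the levels of the 10 genes were compared per kilobase of CDS. Fabp7 and Vim were the most densely occupied at both times. In vehicle cultures Fabp7 had a footprint density of 7989 ± 1679 CPM per kb at 2 h and 5355 ± 280 CPM per kb at 14 h (mean ± SD, n = 4). This density placed it at rank 2 of 15150 genes with footprints at 2 h and at rank 6 of 15870 at 14 h. Vim followed at 3773 ± 251 and 2459 ± 294 CPM per kb, rank 10 at 2 h and rank 18 at 14 h. The progenitor filament and the lipid carrier were thus among the CDSs most densely covered with footprints.

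Nes, Slc1a3, Cd9, Aldoc and Slc1a2 formed a middle group, between 44.7 and 636 CPM per kb on average in vehicle at either time. Vcam1 and Prom1 were low, at 8.97 ± 9.01 and 1.01 ± 0.238 CPM per kb at 2 h. In the vehicle cultures at 14 h every neighbouring pair in the order had separate ranges except Cd9 and Aldoc. At 2 h the ranges of Slc1a3 and Nes, Nes and Cd9, Aldoc and Slc1a2, Slc1a2 and Gfap, and Gfap and Vcam1 overlapped. The density of Gfap spread most, at 21.8 ± 39.3 CPM per kb at 2 h and 0.139 ± 0.0473 at 14 h. Among the members, Fabp7, Vim, Nes and Slc1a3 thus had the highest mean densities in the vehicle cultures at both times. The footprints of Gfap and Prom1 were near the lower end of detection in most vehicle cultures.

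**Figure D1:**
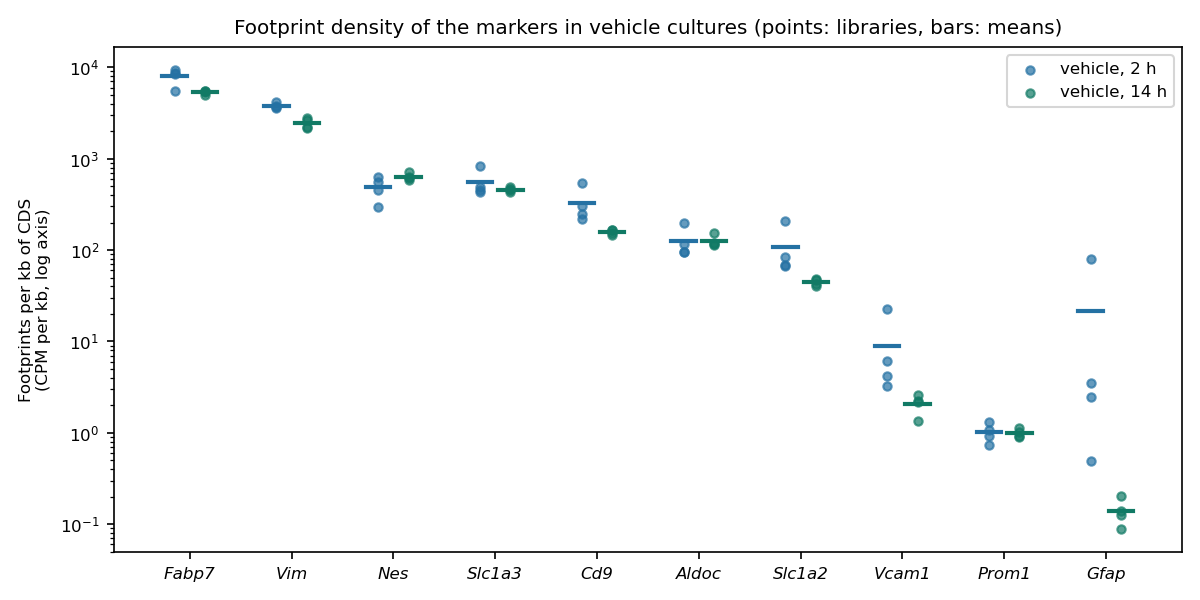
Footprint density (CPM per kb of CDS, log axis) of the 10 members in the vehicle cultures at 2 h and 14 h, ordered by the mean at 14 h. Points are libraries and bars are means of 4. Fabp7 and Vim lie at the top in both sets, and Gfap spans from 0.488 to 80.8 CPM per kb among the vehicle cultures at 2 h.

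The vehicle cultures of the 2 h and 14 h sets differed from each other in some members. The vehicle mean at 2 h was 156 times that at 14 h for Gfap, 4.32 times for Vcam1, 2.40 times for Slc1a2 and 2.07 times for Cd9. These means include the culture numbered 3, the highest of its group in each of these members. The other vehicle cultures at 2 h held 0.689 to 4.90 CPM of Gfap, against 0.124 to 0.285 CPM at 14 h. For Vcam1 they held 7.76 to 14.7 against 3.23 to 6.19 CPM. For Slc1a2 the ranges were 121 to 150 against 72.0 to 87.5 CPM, and for Cd9 149 to 205 against 99.7 to 114 CPM. For Nes, Prom1, Slc1a3 and Aldoc the mean of one set was within 1.31 times the other. Time in culture and set of cultures cannot be told apart here, and these differences were not tested.

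After 2 h of IFN-β, 0 of the 10 members passed an adjusted p of 0.05 in edgeR's quasi-likelihood test over all genes without regard to the culture number. Across all genes tested 7.25% were called, 5.25% as higher. One member had an unadjusted p under 0.05 in this test, and DESeq2 called 1 member, Vim in both cases. The cultures of one number moved together (processing section), and with the number as a block 4 members were called, all higher with IFN-β. These were Gfap, Vim, Vcam1 and Cd9. In that fit 29.2% of all genes were called and 15.9% as higher.

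Gfap encodes the intermediate filament that defines astrocytes and quiescent stem cells. Its footprints in vehicle cultures numbered 2, 3, 5 and 6 were 3.51, 114, 4.90 and 0.689 CPM. With IFN-β they were 46.2, 469, 75.3 and 57.5 CPM. The level was higher with IFN-β in all 4 pairs, by 4.11 to 83.6 times, while the groups overlapped through the vehicle culture numbered 3. Over all genes, 21.1% were higher with IFN-β in all 4 pairs. The log2 fold change was 2.40 without the block (95% interval -0.60 to 5.39, adjusted p = 0.432 in edgeR) and 2.82 with it (adjusted p = 2.14e-11 in edgeR). Without the cultures numbered 3 it was 4.27, past the threshold also without a block (adjusted p = 2.59e-06 in edgeR). The vehicle counts in the other cultures were 33, 37 and 5, so the size of the increase rests on few reads.

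Vim, the other filament gene among the members called with the block at 2 h, moved little but evenly. Its footprints were 5079.9, 4971, 5764 and 5286 CPM with vehicle and 6620.2, 5953, 6625 and 7105 CPM with IFN-β, in the order of culture numbers 2, 3, 5 and 6. All 4 cultures with IFN-β lay above all 4 with vehicle, a separation seen in 7.68% of all genes. The log2 fold change was 0.32, with adjusted p = 0.134 without the block and 5.14e-08 with it in edgeR. Without the cultures numbered 3 it was 0.34 (adjusted p = 0.0131 in edgeR, no block).

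Nes, the filament that pairs with vimentin in progenitors, showed no such rise. With vehicle it had 2532, 1672, 3127 and 3551 CPM and with IFN-β 3012, 1698, 3138 and 3544 CPM. Its log2 fold change was 0.072, with an interval of -0.0082 to 0.15, under the block (adjusted p = 0.179 in edgeR). The cultures numbered 3 had the lowest level in each group.

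Vcam1 and Cd9, an adhesion receptor and a tetraspanin, were each higher with IFN-β in 4 of 4 pairs at 2 h, whereas the other members of the cell surface, Prom1 (2 of 4 pairs), Slc1a3 and Slc1a2 (1 of 4 each), were not. Vcam1 footprints were 7.76, 53.8, 14.7 and 10.1 CPM with vehicle and 14.0, 76.0, 28.3 and 12.4 CPM with IFN-β. Those of Cd9 were 149, 367, 205 and 169.6 CPM with vehicle and 196, 402, 268 and 229 CPM with IFN-β. In both genes the groups overlapped, the culture numbered 3 was highest in each group, and the pairs rose by 1.24 to 1.93 times for Vcam1 and by 1.10 to 1.35 times for Cd9. With the block, the log2 fold change was 0.64 for Vcam1 (adjusted p = 1.63e-05) and 0.33 for Cd9 (adjusted p = 7.98e-06 in edgeR). Without the block neither was called (adjusted p = 0.810 and 0.754 in edgeR), also without the cultures numbered 3 (adjusted p = 0.132 and 0.0585).

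The remaining members were not called at 2 h with or without the block. The transporter Slc1a3 had a log2 fold change of -0.075 under the block (95% interval -0.16 to 0.0074), Slc1a2 of -0.045 and the enzyme Aldoc of 0.073. Fabp7 stood at -0.032 (interval -0.11 to 0.045) and Prom1 at 0.30 (interval -0.19 to 0.79). Slc1a3 was called lower, by 0.11 on the log2 scale, only where the block was used and the cultures numbered 3 were left out (adjusted p = 0.0349 in edgeR). That fit called 5 members in all, beside 3168 of the 11892 genes tested.

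**Figure D2:**
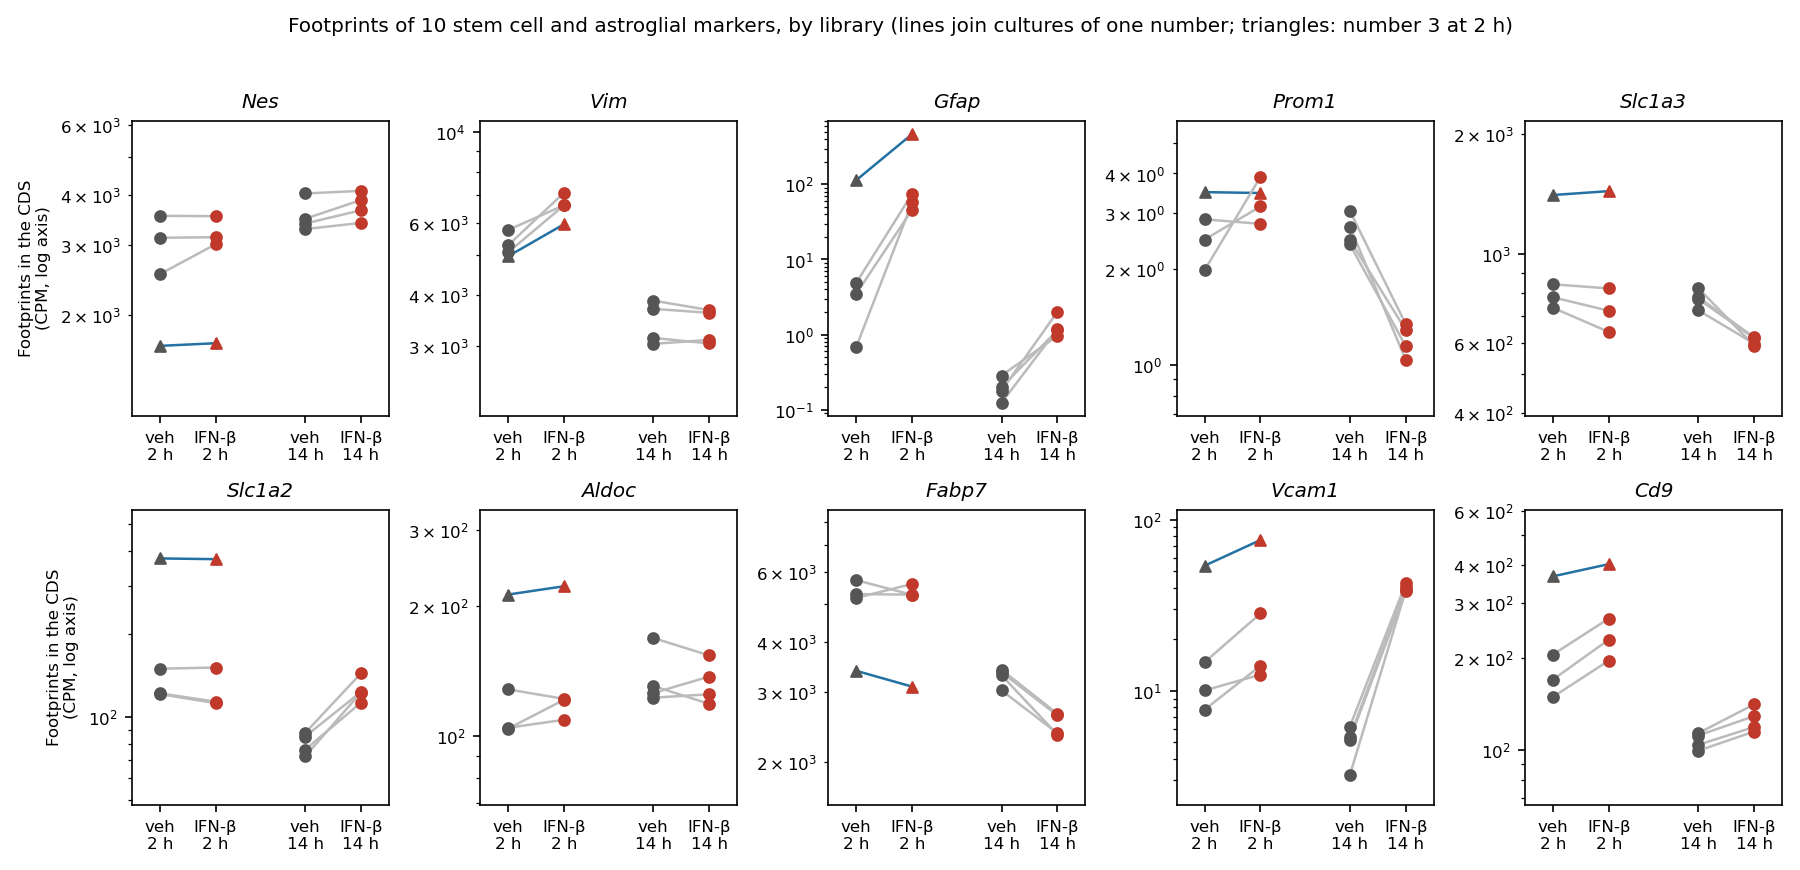
Footprints in the CDS (CPM, log axes that differ between panels) of each member in the 16 footprint libraries. Grey points are vehicle and red points IFN-β, lines join cultures of one number, and triangles with blue lines mark the cultures numbered 3 at 2 h. Gfap rises in every pair at 2 h, and Vcam1 goes from 3.23 to 6.19 CPM up to 38.5 to 42.4 CPM at 14 h.

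After 14 h, 9 members had enough footprints to be tested and 6 of them were called, 3 higher and 3 lower. Of all genes, 52.5% were called at this time, 26.2% as higher and 26.3% as lower, so the members' count is near the background. The median log2 fold change of the tested members was -0.040, against 0.0030 over all genes. The members that rose were Vcam1, Slc1a2 and Cd9, and those that fell were Prom1, Slc1a3 and Fabp7. Nes, Vim and Aldoc were not called. The block changed none of these calls.

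Vcam1 changed most among the members tested. Its footprints in the vehicle cultures numbered 1 to 4 were 5.38, 5.19, 6.19 and 3.23 CPM, and with IFN-β 40.3, 38.5, 42.4 and 38.6 CPM. The groups did not overlap, which held with IFN-β above in 23.4% of all genes and with IFN-β below in 23.0%, and the IFN-β cultures lay close together. The log2 fold change was 3.02 (95% interval 2.72 to 3.32, adjusted p = 1.32e-09 in edgeR), a fold of 8.10. It stayed between 2.83 and 3.15 when single libraries were left out.

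The glutamate transporters, which clear the transmitter from around synapses, went in opposite directions. Slc1a2 was counted at 87.5, 85.0, 76.1 and 72.0 CPM with vehicle and at 144, 123, 113 and 123 CPM with IFN-β. Slc1a3 was counted at 724, 823, 782 and 773 CPM with vehicle and at 598, 591, 619 and 617 CPM with IFN-β. Neither pair of groups overlapped. The log2 fold changes were 0.63 for Slc1a2 (interval 0.46 to 0.81, adjusted p = 2.83e-05) and -0.36 for Slc1a3 (interval -0.48 to -0.25, adjusted p = 7.41e-05 in edgeR). Slc1a3, the transporter of immature astroglia, remained the more abundant of the pair per kb of CDS, at 357 ± 8.31 against 70.1 ± 7.30 CPM per kb with IFN-β (mean ± SD, n = 4).

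Fabp7, which carries fatty acids in radial glia and stem cells, fell in every pair. It had 3029, 3306, 3411 and 3363 CPM with vehicle and 2366, 2345, 2646 and 2621 CPM with IFN-β. The log2 fold change was -0.40 (interval -0.53 to -0.27, adjusted p = 0.000128 in edgeR). Even so its density with IFN-β, 4076 ± 263 CPM per kb, was still the highest of the 10. Aldoc, the other metabolic gene, had vehicle levels from 123 to 169 CPM and IFN-β levels from 119 to 154 CPM, with a log2 fold change of -0.051 (interval -0.28 to 0.18).

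Prom1 fell most among the members tested, from a low level. Its footprints were 3.05, 2.39, 2.72 and 2.47 CPM with vehicle and 1.34, 1.14, 1.04 and 1.29 CPM with IFN-β. These are 17 to 26 reads per vehicle library and 4 to 12 per IFN-β library. The groups did not overlap, and the log2 fold change was -1.13 (interval -1.63 to -0.63, adjusted p = 0.00122 in edgeR). At a minimum mean of 50 counts Prom1 was not tested, which left 5 called members.

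Cd9 rose slightly, from 99.7, 104, 112 and 114 CPM to 115, 119, 129 and 141 CPM. The lowest IFN-β culture was just above the highest vehicle culture. The log2 fold change was 0.23 (interval 0.075 to 0.39, adjusted p = 0.0165 in edgeR).

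The progenitor filament genes Nes and Vim were not called at 14 h. Nes had 3289 to 4041 CPM with vehicle and 3408 to 4104 CPM with IFN-β. Its log2 fold change was 0.076 without the block (interval -0.088 to 0.24) and 0.077 with it (interval 0.0063 to 0.15, adjusted p = 0.0538 in edgeR). Nes was higher with IFN-β in 4 of 4 pairs, as were 34.2% of all genes. Vim had 3037 to 3874 CPM with vehicle and 3044 to 3673 CPM with IFN-β. Its log2 fold change was -0.040 without the block (interval -0.23 to 0.15). The groups of both genes overlapped. Gfap was below the minimum for testing, with 1, 2, 1 and 3 reads in the vehicle cultures and 6, 8, 8 and 9 with IFN-β. Over the groups these were 7 against 31 reads, a ratio per total count of 5.82 (95% interval 2.51 to 15.7, counting error only). When genes with few reads were kept in the fit, Gfap was called higher (log2 fold change 2.45, adjusted p = 0.000436 in edgeR).

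**Figure D3:**
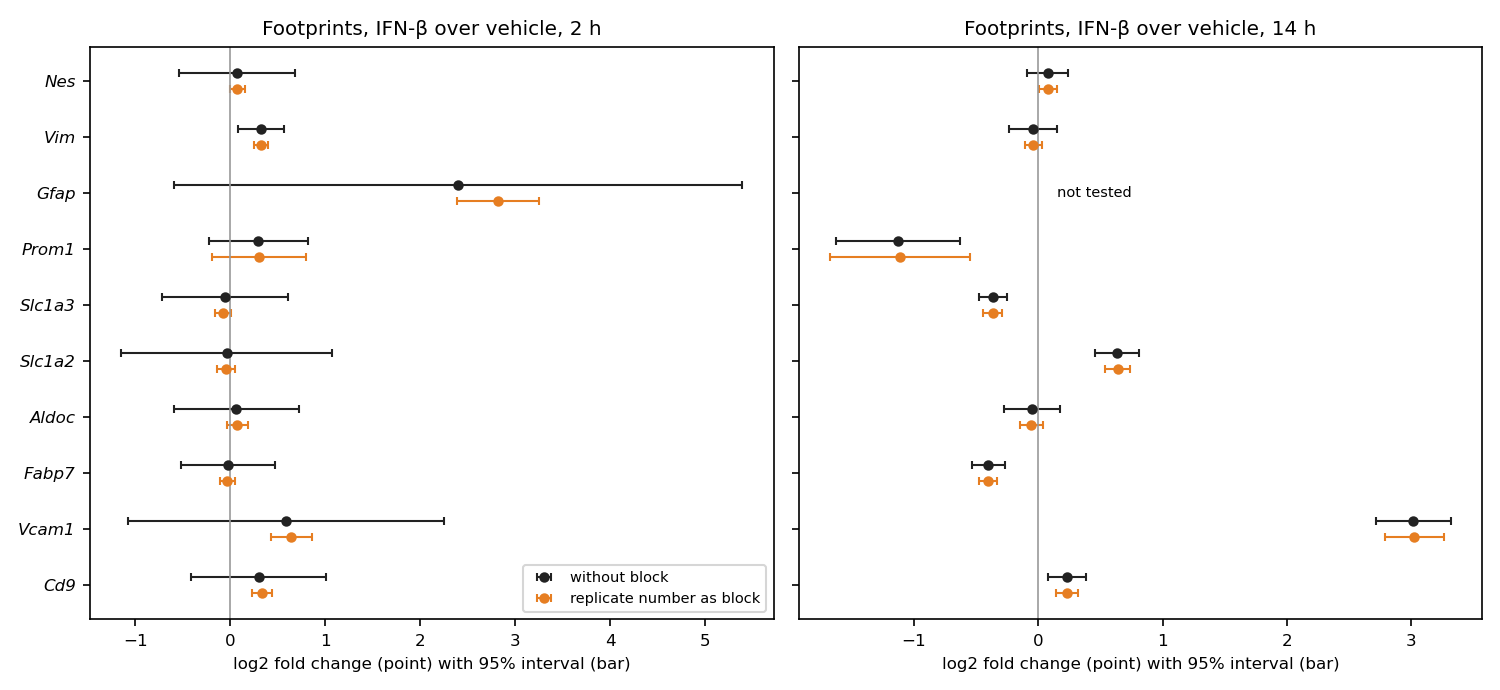
Log2 fold changes in footprints, IFN-β over vehicle, of the 10 members at 2 h (left) and 14 h (right), with 95% intervals from edgeR. Black is the fit without a block and orange the fit with the culture number as a block. At 2 h the intervals of Gfap, Vcam1 and Cd9 include 0 only without the block, and at 14 h the points of both fits lie close together, with narrower intervals under the block for all tested members but Prom1.

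A time by treatment interaction, fitted to all 16 footprint libraries, asked whether the effect of IFN-β differed between the times. Of 10 members 2 were called, Prom1 and Vcam1, against 30.9% of all genes. The effect on Prom1 was lower at 14 h than at 2 h by 1.42 on the log2 scale (interval -2.06 to -0.78, adjusted p = 0.00212 in edgeR). The effect on Vcam1 was higher at 14 h by 2.44 (interval 0.62 to 4.25, adjusted p = 0.0404). The call on Vcam1 was lost in 12 of the 16 fits that left out a library (adjusted p of up to 0.116).

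With the block, 6 members were called in this test, against 55.5% of all genes, so the members' count is near the background. Slc1a2 (0.69) and Vcam1 (2.39) had the higher effect at 14 h, and Prom1 (-1.41), Fabp7 (-0.36), Vim (-0.35) and Slc1a3 (-0.28) the lower one on the log2 scale. Without the cultures numbered 3 and without a block, 5 were called, beside 5196 of the 12428 genes tested. So Slc1a2, Slc1a3 and Fabp7, which moved at 14 h, differed from their own 2 h effect once cultures of one number were compared. In the same fit Vim was raised at 2 h relative to 14 h. With all cultures and no block, none of these members was called (adjusted p = 0.351, 0.496, 0.254 and 0.0708 in edgeR). For Gfap the difference between times was 0.057 without the block (interval -3.29 to 3.41), too wide to order the times. For Nes (0.016 under the block, interval -0.086 to 0.12), Aldoc (-0.12) and Cd9 (-0.095) no difference was called in either fit.

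The total RNA of the same cultures was counted over the whole gene, and it held few reads for most members. A member with 9251 to 40804 footprints per library at 14 h, Vim, had 3 to 12 total RNA reads. Fabp7 had 2 to 152 reads over all 16 total RNA libraries, and Vcam1, Prom1 and Aldoc had at most 13. Across genes tested in footprints, the median total RNA count per vehicle library was 14 at 2 h and 4 at 14 h. Spearman's rho between vehicle footprints and total RNA across these genes was 0.286 at 2 h and 0.226 at 14 h. Gfap, for example, had 6 to 44 total RNA reads at 14 h beside 1 to 9 footprints. Whether counts came from the labelled strand is not known, and Gfap, Prom1, Slc1a2, Vcam1 and Cd9 overlap annotated genes on the opposite strand. The total RNA libraries of the vehicle cultures numbered 5 at 2 h and 3 at 14 h also stood apart. Their normalization factors (TMM) were 0.435 and 0.499, against 0.971 to 1.33 in the other total RNA libraries.

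**Figure D4:**
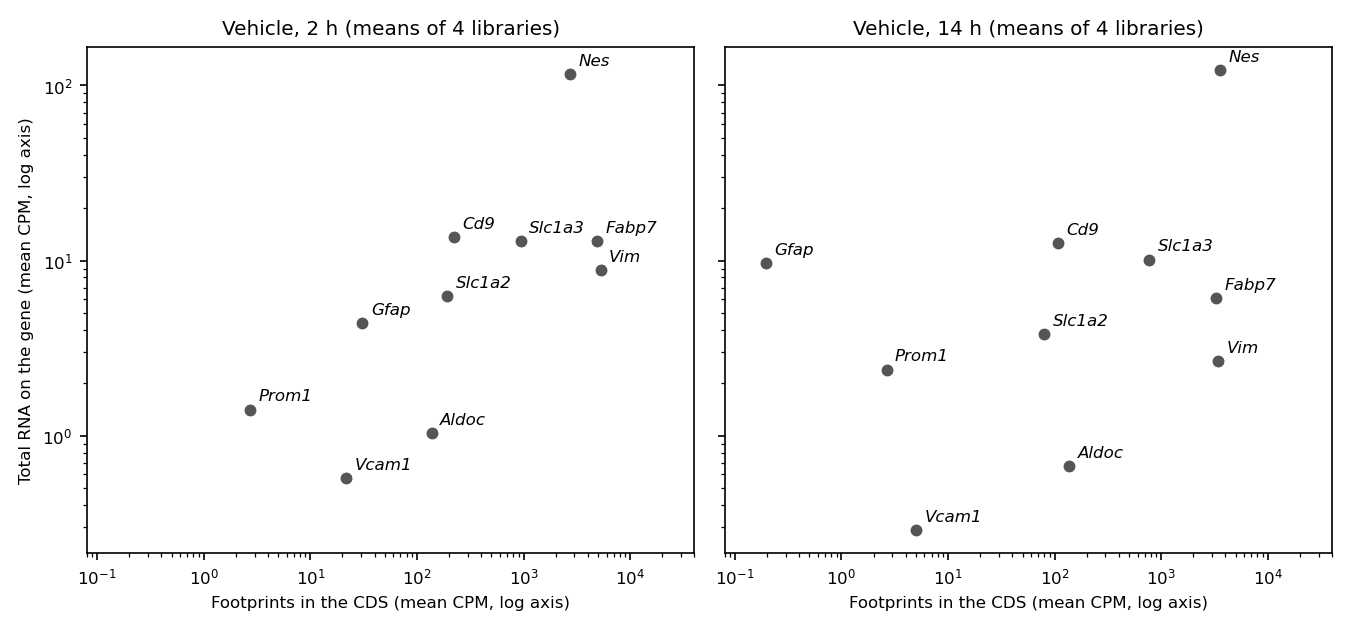
Mean total RNA (CPM over the gene, log axis) against mean footprints (CPM in the CDS, log axis) of the 10 members in vehicle cultures at 2 h and 14 h, each the mean of 4 libraries. Nes lies above the other members in total RNA, and Gfap at 14 h combines 9.70 CPM of total RNA with 0.197 CPM of footprints.

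At 2 h, 7 members had enough total RNA to be tested and 0 were called in edgeR, against 0.799% of all genes. One of them, Gfap, had an unadjusted p under 0.05 in edgeR, and DESeq2 and limma-voom called 0. Gfap total RNA was 8.12, 3.40, 4.37 and 1.70 CPM with vehicle and 11.1, 9.98, 6.99 and 10.5 CPM with IFN-β, numbers 2, 3, 5 and 6. It was higher in 4 of 4 pairs with overlapping groups (log2 fold change 1.19, interval 0.33 to 2.06, adjusted p = 0.387 in edgeR). The culture numbered 3 did not stand out in Gfap total RNA with vehicle as it did in footprints.

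At 14 h, 5 members were tested in total RNA and 1 was called, Cd9, against 6.3% of all genes. Cd9 had 15.3, 6.69, 16.1 and 12.1 CPM with vehicle and 34.0, 27.9, 25.0 and 24.5 CPM with IFN-β. The 16.1 CPM of the vehicle culture numbered 3 came from 11 reads. The groups did not overlap, as in 7.3% of all genes with IFN-β above, and the log2 fold change was 1.14 (interval 0.59 to 1.70, adjusted p = 0.0149 in edgeR). The call was lost without the IFN-β culture numbered 1 (adjusted p = 0.0832) and with total counts in place of TMM (adjusted p = 0.0581). Cd9 overlaps Gm26728 and Gm28809 on the other strand, and their share of these reads was not tested.

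Translation efficiency (TE), the change in footprints relative to the change in total RNA, was tested as an interaction at an adjusted p of 0.1. At 2 h 0 of 10 members were called, against 0.815% of all genes, and DESeq2 and limma-voom called 0 as well. None of the members had an unadjusted p under 0.05 at 2 h. At 14 h 2 were called, against 8.45% of all genes. The TE of Gfap was higher with IFN-β by 2.33 on the log2 scale (interval 1.00 to 3.66, adjusted p = 0.0293 in edgeR) and rests on 7 vehicle footprints. The TE of Cd9 was lower, at -0.97 (interval -1.46 to -0.48, adjusted p = 0.0130), since its total RNA rose more than its footprints. At the stricter minimum of 50 counts neither had enough reads to be tested. Leaving out the cultures numbered 3 at 2 h added Gfap there (log2 change in TE 3.19, adjusted p = 0.0352 in edgeR).

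Other genes of stem cells and astroglia were read in the same way, from a list of 35. At 2 h 33 were tested and 1 was called, Nr2e1, a nuclear receptor of neural stem cells (log2 fold change -0.86, adjusted p = 0.0453 in edgeR). Over all genes 2.01% were called lower in this fit. With the block 5 were higher and 16 lower, beside 15.9% and 13.4% of all genes. Without the cultures numbered 3 there were 1 higher and 8 lower, beside 8.69% and 5.36% of all genes. At 14 h 31 were tested, and 9 rose and 9 fell, near the 26.2% and 26.3% over all genes, with a median log2 fold change of -0.0027 against 0.0030 over all genes. The largest increases among well counted genes were in the folate enzyme Aldh1l1 (0.96), the protease Htra1 (0.93) and the chaperone clusterin, Clu (0.92), all used as astrocyte genes. Among the genes that fell was Gja1 (-0.60), which encodes connexin 43 of astrocytes.

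The difference between times was called for 5 of 33 genes on this list, 4 of them higher at 14 h, beside 15.4% of all genes higher and 15.5% lower. Aldh1l1 (1.08), Htra1 (1.04) and Glul (0.75), the glutamine synthetase that acts on the glutamate taken up by the transporters above, had the higher effect at 14 h. Cd44 (-0.55), a hyaluronan receptor, had the lower one on the log2 scale. With the block 17 were higher and 6 lower, beside 28.0% and 27.5% of all genes.

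Family members and binding partners of the 10 genes were taken from a list of 41, of which 28 were tested in footprints. At 2 h 3 rose, the neurofilament Nefm (1.50), the tetraspanin Tspan4 (1.27) and Dst (1.06), which encodes a linker of intermediate filaments. Over all genes 5.25% were called higher in this fit. With the block there were 11 higher and 4 lower, beside 15.9% and 13.4% of all genes. Without the cultures numbered 3 there were 6 higher, beside 8.69% of all genes. At 14 h 12 rose and 7 fell, beside 26.2% and 26.3% of all genes. Tetraspanins related to Cd9 were on both sides, with Cd151 (0.75) and Cd63 (0.62) higher and Tspan7 (-0.53) lower. Dst (0.94) was higher, and the filament Ina (-0.63) and the neutral amino acid transporter Slc1a5 (-0.59), a relative of Slc1a2 and Slc1a3, were lower. Itga4 and Itgb1 form the integrin that binds VCAM1 and were singled out after their values had been seen, with log2 fold changes of -0.45 (adjusted p = 0.000992) and 0.23 (adjusted p = 0.00172 in edgeR).

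Between the times, 7 of 28 genes on this list were called, beside 30.9% of all genes. The effect was higher at 14 h for 2 and lower for 5, beside 15.4% and 15.5% of all genes. Fabp3 (1.35), a fatty acid binding protein like Fabp7, and Cd151 (0.54) were the higher ones. Nefm (-1.75), Tspan4 (-1.04) and Slc1a5 (-0.69) had the lowest log2 values among well counted genes. With the block 7 were higher and 8 lower, beside 28.0% and 27.5% of all genes.

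Markers of other cell types were read in footprints as well, and they ranged from absent to abundant. Of the defining markers, 5 of 7 microglial, 4 of 7 endothelial and mural, 4 of 6 oligodendrocyte, 1 of 3 ependymal and 0 of 5 neuronal ones never reached 10 reads in any library. Aif1 and Cx3cr1 of microglia were at 0 throughout, whereas Itgam and P2ry12 were detected. At 14 h the mean of Itgam was 32.3 CPM with vehicle and 19.0 CPM with IFN-β. That of P2ry12 was 7.35 CPM with vehicle and 23.0 CPM with IFN-β. Others were well counted, among them Tubb3 (neuronal, a vehicle mean of 47.1 CPM at 14 h) and Foxj1 (ependymal, 19.6 CPM), both above Vcam1 in the same cultures. The summed levels of whole lists at 14 h were as follows. The 11 oligodendrocyte lineage genes summed to 2234 to 2712 CPM with vehicle and 2637 to 3350 CPM with IFN-β, and the 11 neuronal genes to 1339 to 1483 against 1701 to 1868 CPM. The 15 microglial genes summed to 90.7 to 101 against 108 to 119.5 CPM, and the 8 ependymal genes to 25.1 to 32.9 against 55.5 to 69.5 CPM. The groups did not overlap in the neuronal, microglial and ependymal sums, all higher with IFN-β. At 2 h the oligodendrocyte lineage sum was lower with IFN-β without overlap, at 1765 to 2142 CPM against 2566 to 3097 CPM with vehicle, while the groups of the other 4 sums overlapped. The part of these shifts in the members' changes was not tested.

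Vcam1 is also a gene of endothelial cells. The 13 endothelial and mural genes summed to 24.3 to 33.5 CPM with vehicle at 14 h and to 52.0 to 63.5 CPM with IFN-β. The gene Ly6c1 carried this rise, with 0.199 to 0.665 CPM in vehicle cultures and 26.5 to 34.5 CPM with IFN-β. Without it the other 12 genes summed to 24.1 to 33.2 CPM with vehicle and 25.5 to 32.1 CPM with IFN-β. Of the defining markers, Pecam1, Cdh5, Cldn5 and Pdgfrb had at most 3 reads in any footprint library. Flt1 (7.24 and 7.43 CPM) and Kdr (5.04 and 5.84 CPM) were detected at 14 h at these means with vehicle and IFN-β, and Tek rose by 0.84 on the log2 scale (adjusted p = 0.00102 in edgeR). The part of such cells in the change of Vcam1 was not tested.

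In the cultures numbered 3 at 2 h, the sum over the 35 other stem cell and astroglial genes was 33020 CPM with vehicle and 29044 CPM with IFN-β, the highest of each group. The lowest of each group were 19069 and 18468 CPM. Gfap was 37.6 times the mean of the other vehicle cultures there, Vcam1 4.97 times, Slc1a2 2.87 times, Cd9 2.10 times, Aldoc 1.90 times and Slc1a3 1.79 times. Nes (1.84 times), Fabp7 (1.59 times) and Vim (1.08 times) were lower in it than the mean of the others. Within this culture number IFN-β still went with 4.11 times the Gfap footprints of vehicle, and with 1.41 times those of Vcam1.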

How the data were processed

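Ribo-Seq and total RNA counts were analysed for 32 libraries, 4 cultures in each of 4 groups. Per the labels and methods, the authors trimmed reads with Trim Galore 0.4.4, mapped them with Bowtie 0.12.7 to the ENSEMBL mm10 (GRCm38) transcriptome, removed duplicates and counted reads with SummarizeOverlaps in "Union" mode. The strand setting was not given in the sources used here. The authors deposited raw counts per gene, footprints in the CDS (23035 genes) and total RNA over the gene body (39017 genes). The 10 genes were matched by GENCODE M21 identifier, which 22205 and 37607 of the genes carried, and CDS lengths came from the same annotation.

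The tests kept genes that reached 10 counts in 4 or more libraries and were run in R 4.3.3 with edgeR 4.0.16 (TMM, quasi-likelihood test, two-sided, Benjamini-Hochberg over all genes tested). A gene was called where its adjusted p lay below 0.05. For TE, the interaction of library kind and treatment, the limit was 0.1. DESeq2 1.42.0, limma-voom (limma 3.58.1), other normalizations and filters, the replicate block and single libraries left out were alternatives, and the tests were tried on simulated data first. The labels number the cultures. Deviations from the group means of footprint libraries with one number correlated at 0.345 to 0.821 at 2 h and 0.203 to 0.434 at 14 h, over the 0.1 set as the limit, so the numbers were taken to pair footprint libraries. Libraries of unlike numbers correlated at up to 0.336 at 2 h and 0.116 at 14 h, also over this limit. Each vehicle library correlated most with the IFN-β library of its own number. The labels call the cultures replicates, and p-values measure the spread between them. The numbers did not pair the total RNA libraries. The members and lists were chosen with earlier results of these data known. Of the other lists, the text names, per footprint comparison, up to 3 called genes in each direction with a mean of at least 50 counts, ranked by log2 fold change, and some genes that met this rule are not reported here.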

Additional observations from a re-analysis of the deposited data

Results flagged for a closer look

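Of 80 sets of 4 libraries (each member, kind of library and group), 11 held a value far from the other 3 by Dixon's criterion, which chance meets in about 1 of 20 sets. Of these, 8 were footprint values of the cultures numbered 3 at 2 h. With vehicle they were Gfap (114 CPM), Slc1a3 (1407 CPM), Slc1a2 (376 CPM) and Vcam1 (53.8 CPM), all high. With IFN-β they were Gfap (469 CPM), Slc1a2 (374 CPM) and Aldoc (222 CPM), all high, and Fabp7 (3095 CPM), which was low. Both treatments of this culture number deviated alike, and the cause was not tested.

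The other 3 values were in total RNA. Slc1a2 had 14.1 CPM in the IFN-β culture numbered 3 at 2 h and 7.32 CPM in the vehicle culture numbered 3 at 14 h, both high. Vcam1 had 1.15 CPM in the vehicle culture numbered 1 at 14 h, where the other 3 held no read.

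The effect of IFN-β on footprints differed between the times for Prom1 (14 h minus 2 h, -1.42 on the log2 scale, adjusted p = 0.00212 in edgeR) and for Vcam1 (2.44, adjusted p = 0.0404).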

How the results depend on the processing

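All 6 calls in footprints at 14 h held under DESeq2, limma-voom, both other normalizations, the block and every left-out library. Keeping genes with few counts gave 7 called members (Gfap added), and a minimum mean of 50 counts gave 5 (Prom1 not tested). At 2 h the count was 0, but 1 (Vim) under DESeq2, 4 with the replicate block, 2 (Gfap and Vim) without both cultures numbered 3, 5 with both, and 0 to 1 with single libraries left out (the 1 was Gfap without the vehicle culture numbered 3, log2 fold change 5.71). For 14 h minus 2 h the count was 2, but 3 under DESeq2, 1 at a minimum mean of 50 (Prom1 not tested), 6 with the replicate block, 5 without both cultures numbered 3, 7 with both, and 1 to 5 with single libraries left out (5 without the IFN-β culture numbered 3 at 2 h). For total RNA at 14 h the 1 call became 0 with total counts alone and at a minimum mean of 50 (Cd9 not tested), and 0 to 1 with single libraries left out. TE gave 1 member in place of 0 at 2 h without both cultures numbered 3, and 0 in place of 2 at 14 h at a minimum mean of 50 (neither tested). The block changed no other call. For total RNA and TE, whose numbers did not pair (correlations from -0.484 to 0.388 at 2 h and -0.009 to 0.247 at 14 h), the block left 0, 1, 0 and 2 called members.

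Over single members and alternatives, 891 values kept direction and side, 31 crossed into a call, 14 out of one, and 89 changed sign. Apart from left-out libraries the sign changes were as follows, each in a member without a call in both fits. Gfap at 14 h minus 2 h was -1.69 in limma-voom, -0.19 with the block, -1.81 without both cultures numbered 3 and -1.75 with both. Fabp7 footprints at 2 h were 0.00043 with both. Total RNA at 14 h was -0.088 for Gfap in limma-voom and 0.0088 for Nes with total counts. TE at 2 h was 0.042 for Vcam1 in limma-voom and 0.61 without the cultures numbered 3, and for Vim -0.21 with total counts, -0.0114 at a minimum mean of 50 and -0.0113 without the cultures numbered 3. TE of Fabp7 at 14 h was 0.0081 in DESeq2, 0.055 in limma-voom, 0.00077 with DESeq2's size factors, 0.018 with total counts and 0.18 with the block. TE of Prom1 at 14 h was -0.0090 without a filter. The cause was not tested.

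With single libraries left out, log2 values crossed 0 over these ranges. For footprints at 2 h they were Nes -0.10 to 0.25, Slc1a3 -0.37 to 0.21, Slc1a2 -0.61 to 0.52, Aldoc -0.22 to 0.36, Fabp7 -0.16 to 0.14 and Vcam1 -0.22 to 1.58. At 14 h they were Vim -0.091 to 0.028 and Aldoc -0.12 to 0.076. For 14 h minus 2 h they were Nes -0.16 to 0.19, Gfap -3.23 to 1.49, Slc1a3 -0.56 to 0.015, Aldoc -0.39 to 0.19 and Cd9 -0.41 to 0.18. Total RNA gave Slc1a2 -0.54 to 0.74 and Slc1a3 -0.096 to 0.59 at 2 h, and Nes -0.33 to 0.15, Gfap -0.28 to 0.29 and Slc1a3 -0.028 to 0.21 at 14 h. TE at 2 h gave Vim -0.28 to 0.31, Gfap -0.19 to 4.64, Slc1a2 -0.27 to 0.052, Aldoc -0.55 to 0.021 and Vcam1 -0.89 to 1.08. TE at 14 h gave Nes -0.085 to 0.28, Prom1 -0.37 to 0.45, Slc1a2 -0.092 to 0.33, Fabp7 -0.36 to 0.62 and Vcam1 -2.44 to 2.61.

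Over all genes, 878 calls in footprints at 2 h became 3538 with the block, 1671 without both cultures numbered 3, 3168 with both and 517 to 953 with single libraries left out. For 14 h minus 2 h, 3867 became 6944 with the block, 5196 without both cultures numbered 3 and 6666 with both. In total RNA, 93 at 2 h became 169 in DESeq2, 174 without a filter, 44 at a minimum mean of 50, 39 without the cultures numbered 3 and 30 to 74 with single libraries left out. At 14 h, 474 became 269 with total counts, 247 at a minimum mean of 50 and 171 to 450 with single libraries left out. TE calls at 2 h were 115, against 259 in DESeq2, 242 in limma-voom, 51 with total counts, 27 at a minimum mean of 50, 201 without the cultures numbered 3 and 70 to 149 with single libraries left out. At 14 h they were 1136, against 380 at a minimum mean of 50. Read depth limits Gfap at 14 h, Prom1 and all total RNA values of the members.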
